A study of Mus musculus with 18 samples.

Results

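The genes described are 6 that encode NMDA receptor subunits: Grin1, Grin2a, Grin2b, Grin2c, Grin2d and Grin3a. They were chosen by symbol, and all 6 were found among the 48440 genes of the expression table. The series took RNA from 3 brain regions of Diversity Outbred mice, a stock in which each animal is genetically distinct, that had done well or poorly in short-term memory. The 6 groups are high performers and low performers in prefrontal cortex (PFC), MDTH and HPF, with 3 libraries each and 18 in all. MDTH and HPF stand as the labels write them. No allele, drug or other treatment is named for any group, and age and sex are not in the labels used here. The labels do not say that the 3 libraries of a group are separate animals, so the p-values speak only of the variation among these libraries. Library names carry numbers that recur between regions: 44, 88 and 165 are the high performers in every region, so the regions are not independent sets of animals if these numbers are animals. In PFC and MDTH the form of the library names also separates all high from all low libraries. In HPF the letters after the number do so, EF or FF in high and BA or BD in low performers. Performance and any difference in handling that goes with the names therefore cannot be told apart in any region.

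The NMDA receptor is a glutamate-gated, calcium-permeable channel that opens when glutamate and a co-agonist, glycine or D-serine, are bound and depolarisation has removed a magnesium block. GluN1, from Grin1, is the subunit every receptor needs and binds the co-agonist. The GluN2 subunits, from Grin2a to Grin2d, bind glutamate and set how long the channel stays open and how strongly magnesium blocks it, GluN2D giving slow closing and weak block. GluN3A, from Grin3a, binds glycine and lowers calcium entry in receptors that hold it. NMDA receptors are known for their part in synaptic plasticity in cortex and hippocampus and in relay neurons of the thalamus.

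Depth, estimated from the steps between low values, was 76705224 to 88633388 reads in the HPF libraries, 41156135 to 48838430 in those of PFC and 42940973 to 47535071 in those of MDTH. By their column names, all HPF libraries came from sequencing lanes 3 to 5 and all PFC and MDTH libraries from lane 1. The PFC and MDTH names hold a further number after the lane. Its meaning is not given, so lane 1 is only a reading of these names. Region therefore cannot be told apart from lane and depth in any comparison of HPF with another region. Region labels were checked against marker genes. All 10 thalamic relay markers were higher in MDTH than in PFC and than in HPF, and 8 of 9 hippocampal markers were higher in HPF than in PFC with 1 lower. Summed markers of the choroid plexus, the tissue that secretes cerebrospinal fluid, stood apart in 4 libraries: PFC high 1 at 144981 normalized counts, PFC low 2 at 123344, PFC low 3 at 74262 and HPF high 2 at 158904, against 1828 to 10442 in the others.

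The subunits are relatives of one family, and shared sequence bears on how well their reads can be told apart. Of all 31-base words in the main transcripts of GENCODE M21, none of Grin1 or Grin3a, 2 of Grin2d, 6 of Grin2c and 69 of Grin2b occurred in a transcript of another gene. Grin2a was the exception, with 2175 of 14604 words shared, 2133 of them with the processed pseudogene Gm7328, whose level was 127 to 583 normalized counts against 4284 to 22728 for Grin2a. Other genes overlap 3 members: Grin1os runs antisense to Grin1 at 242 to 690 normalized counts, Kdelr1 overlaps Grin2d from the opposite strand, and Ppp3r2 lies within Grin3a. How the counting treated strand is not given in the sources used here, so the reads of these neighbours may be shared.

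Grin1, which gives the obligatory subunit, had the smallest differences between regions of the 6 genes. Its level was 28484, 25663 and 22929 normalized counts in the PFC high libraries and 33117, 24555 and 28370 in the PFC low libraries. In MDTH it was 24651, 21893 and 23397 in high and 27365, 21784 and 20682 in low performers. In HPF it was 23478, 24453 and 23475 in high and 25403, 28186 and 24520 in low performers. Every library lay between 20682 and 33117, and the regions overlapped. Per kilobase of transcript, Grin1 was the highest of the 6 genes in all 6 groups, whether length was taken from the main transcript, from all exons together or from the shortest transcript with the same coding sequence.

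The order of the other genes per kilobase differed between regions. With main transcripts, Grin2a and Grin2b followed Grin1 in HPF and PFC, and Grin2d was last, at 137.69 ± 22.1 normalized counts per kilobase in PFC high and 117.15 ± 12.7 in HPF low (SD, n = 3). In MDTH low performers Grin3a at 980 ± 104 and Grin2d at 823 ± 150 stood behind Grin1 at 5493 ± 845, and Grin2a was last at 308 ± 23.0 (SD, n = 3). Neighbours in these orders lay within their spread in several places: Grin2a at 536 ± 50.5 and Grin2b at 540 ± 50.2 in PFC low did not differ beyond it. Grin2a and Grin2b have long untranslated ends, and with the shortest transcripts they moved to ranks behind Grin1 in MDTH too, so the order between genes rests on the length used.

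**Figure D1:**
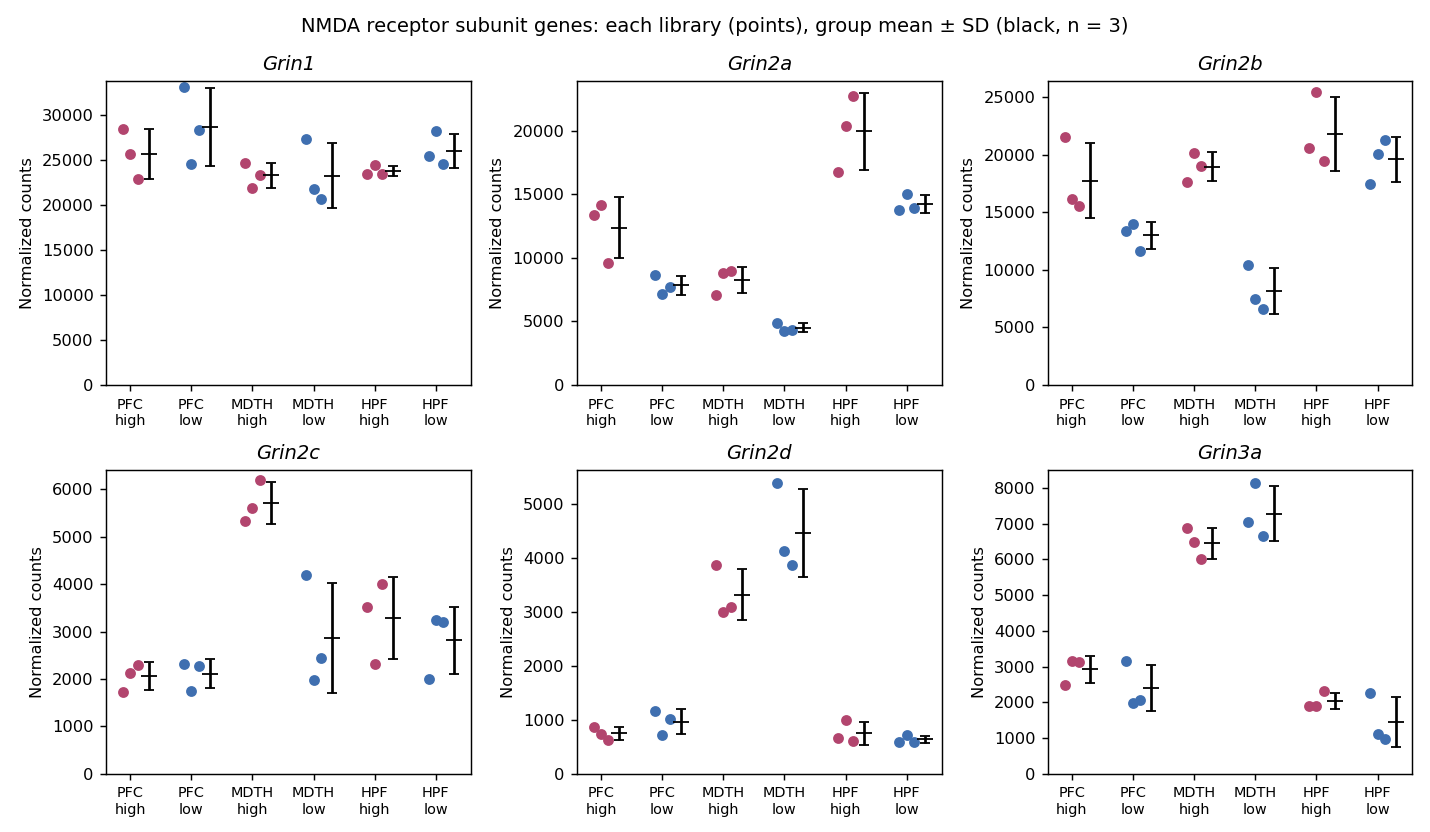
Normalized counts (vertical axis, from 0) of the 6 subunit genes in each library (points; high performers red, low performers blue) by region and performance, with the group mean ± SD beside them (black, n = 3). In MDTH the high libraries lie above the low ones for Grin2a, Grin2b and Grin2c and below them for Grin2d, while Grin1 stays between 20682 and 33117 throughout.

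In MDTH the genes of 3 glutamate-binding subunits were higher in high performers: Grin2b 2.37-fold, Grin2c 2.09-fold and Grin2a 1.82-fold. Grin1, Grin2d and Grin3a did not pass the test. Thus 3 of 6 members passed, all of them higher, where 25% of the 17861 genes tested passed and 12.5% passed as higher. With 6 genes, that share describes them and shows nothing particular to the family. The groups did not overlap for 4 of the 6, against 44.2% of all genes tested. These and the following tests are limma fits on log2(normalized count + 1), with Benjamini-Hochberg adjustment over all genes tested and a threshold of 0.05. In whole tissue, fewer cells of a type and less RNA per cell cannot be told apart.

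Grin2b encodes GluN2B, which gives slow currents and binds the kinase CaMKII. Its MDTH level was 17635, 20168 and 19025 normalized counts in the high libraries and 10381, 7448 and 6577 in the low ones. Each high library stood well above each low one. The log2 difference was 1.24 with SE 0.16 and a 95% interval of 0.86 to 1.63 (limma, adjusted p = 0.00470), and it ran from 1.10 to 1.43 when each library was left out in turn.

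Grin2a encodes GluN2A, the faster-closing subunit of mature synapses. In MDTH it stood at 7068, 8800 and 8926 normalized counts in high performers and at 4898, 4284 and 4354 in low performers. The 3 low libraries lay close together and below all the high ones. The log2 difference was 0.87 with SE 0.11 and an interval of 0.60 to 1.13 (limma, adjusted p = 0.00454).

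Grin2c encodes GluN2C, a subunit with weak magnesium block that is known from cerebellar granule cells, astrocytes and thalamus. Its level in MDTH was 5325, 5598 and 6191 normalized counts in high performers and 4187, 1978 and 2436 in low performers. The groups did not overlap, but low library 1 was much closer to the high libraries than the other low ones were. The log2 difference was 1.06 with SE 0.25 and an interval of 0.47 to 1.66 (limma, adjusted p = 0.0241). This call was lost without low library 2 (adjusted p = 0.0593), low library 3 (0.0864), high library 2 (0.0678) or high library 3 (0.0725).

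Grin2d, the gene of GluN2D, had a difference of the opposite sign that did not pass the test. Its MDTH values were 3867, 3002 and 3104 normalized counts for the high libraries and 5401, 4128 and 3884 in the low ones. The highest high library lay just under the lowest low library. The log2 difference was -0.42 with an interval of -0.78 to -0.06 (limma, adjusted p = 0.0843), and the adjusted p was 0.0478 without high library 1.

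In MDTH Grin3a was at 6881, 6473 and 6015 normalized counts in the high libraries and 7055, 8139 and 6647 in the low ones, with overlap. Its log2 difference was -0.17, with an interval of -0.40 to 0.06 (limma, adjusted p = 0.242). For Grin1 the log2 difference was 0.01, with an interval of -0.27 to 0.29 (limma, adjusted p = 0.952). The sign for Grin1 turned to -0.18 with quantile normalization. Grin3b, the gene of the other GluN3 subunit, was scarce, at 3 to 55 normalized counts over all libraries, and its MDTH log2 difference of -1.92 did not pass (limma, adjusted p = 0.0711).

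**Figure D2:**
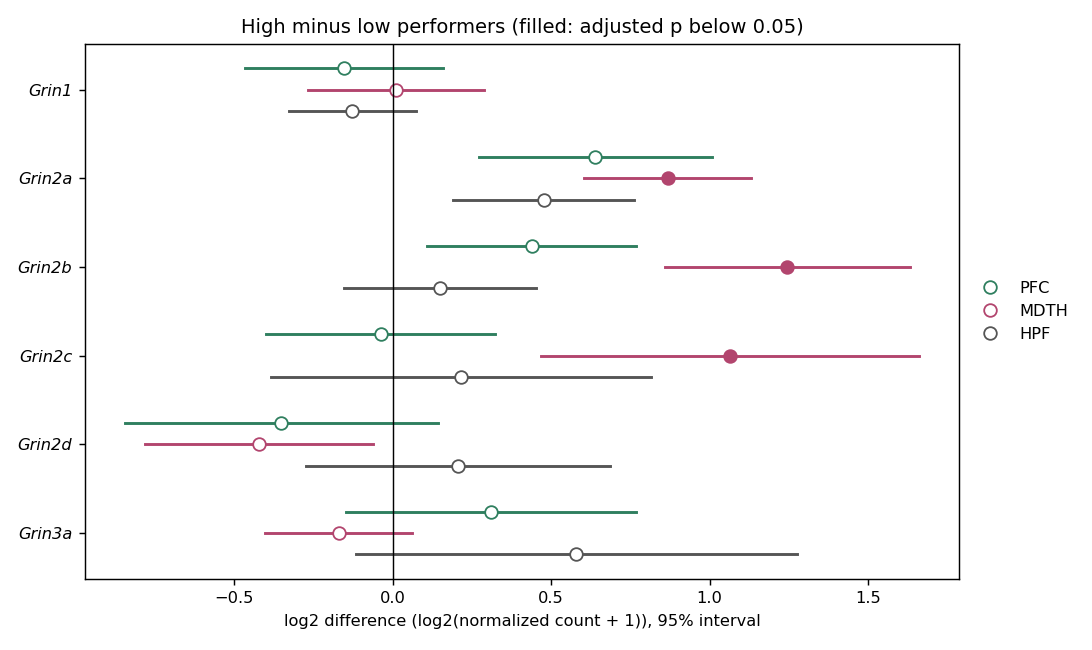
Difference between high and low performers in log2(normalized count + 1) (horizontal axis; points, with 95% intervals) for each subunit gene in PFC, MDTH and HPF, filled where the adjusted p is below 0.05. The filled points are Grin2a at 0.87, Grin2b at 1.24 and Grin2c at 1.06, all in MDTH.

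The GluN2 genes can also be set against each other within a library. In MDTH, as a share of the 4 GluN2 genes per kilobase of main transcript, Grin2d made up 23.6%, 17.6% and 17.7% in the high libraries and 38.0%, 43.0% and 40.1% in the low libraries. The groups were far apart, with means of 19.6% ± 3.45 and 40.4% ± 2.52 (SD, n = 3). Grin2b made up 25.2% ± 1.37 in high and 16.4% ± 1.10 in low performers, and Grin2c 37.2% ± 1.63 and 27.8% ± 4.91, while Grin2a was at 18.01% ± 1.74 and 15.3% ± 2.21 (SD, n = 3). With the shortest transcripts the Grin2d shares were smaller, 10.02% ± 2.07 and 23.5% ± 0.831, with the same order of the groups. In PFC the Grin2d share was 6.41% ± 0.441 in high and 10.5% ± 1.76 in low performers, and in HPF it was 4.50% ± 1.28 and 4.74% ± 0.442 (SD, n = 3). The PFC groups did not overlap and the HPF groups did. Shares describe the same counts as the folds above and were given no test of their own.

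**Figure D3:**
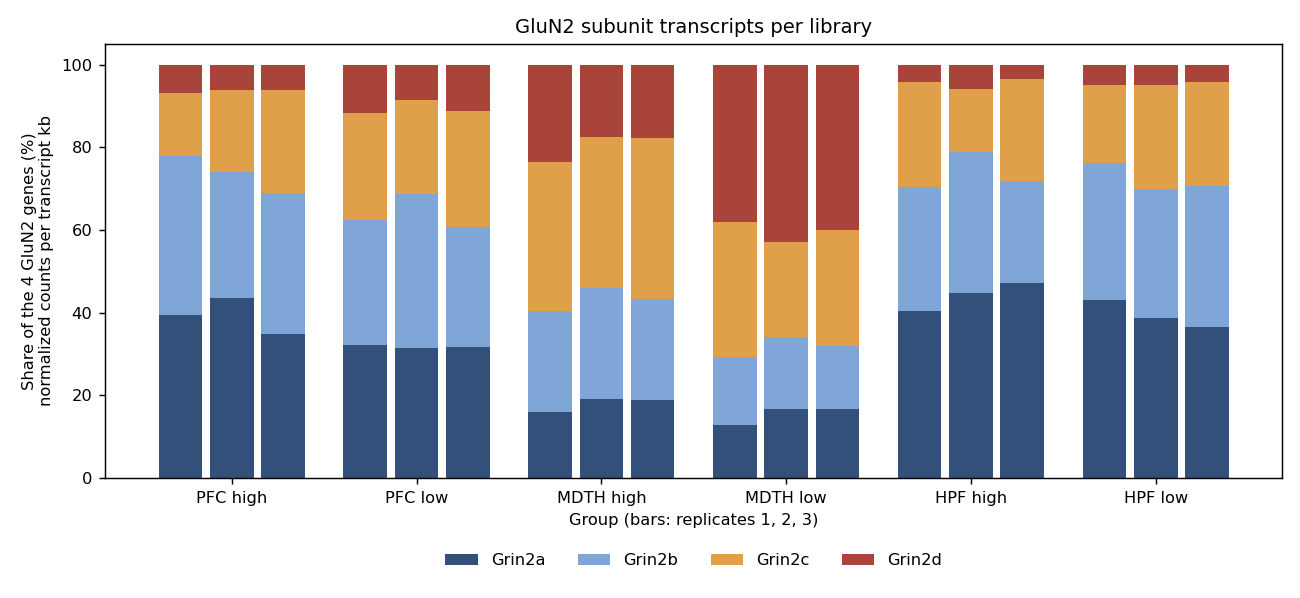
Share of the 4 GluN2 genes (vertical axis, % of their summed normalized counts per transcript kilobase) in each library, with bars for replicates 1 to 3 of each group. Grin2d takes 38.0% to 43.0% in MDTH low performers and 17.6% to 23.6% in MDTH high performers, and at most 11.7% in any PFC or HPF library.

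Against the summed GluN2 genes, Grin1 per kilobase stood at a lower ratio in high performers in every region. In MDTH the ratio was 1.76 ± 0.149 for the high and 2.70 ± 0.222 for the low libraries (SD, n = 3). In PFC it was 2.83 ± 0.0812 and 4.0002 ± 0.278, and in HPF 1.83 ± 0.138 and 2.49 ± 0.261 (SD, n = 3). The groups did not overlap in any of the 3 regions, and the high libraries share their name numbers between regions. The order of the groups was the same with the other lengths, for example 0.866 ± 0.100 against 1.52 ± 0.0833 in MDTH with the shortest transcripts.

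Marker genes of several cell types also separated the MDTH groups. Thalamic relay markers summed to 291696, 335436 and 326009 normalized counts in the high libraries and to 210389, 151966 and 150592 in the low ones, and 6 of 10 passed as higher and 1 as lower. Against the sum, Tcf7l2, Calb2 and Lhx9 had higher means in low performers. These means were 35890, 14577 and 5125 in low and 25693, 10112 and 4306 in high performers. The other relay markers listed had higher means in high performers. Markers of the habenula, which adjoins the medial thalamus, summed to 830 to 2011 in high and 4033 to 23459 in low performers, with 4 of 8 lower and none higher. Inhibitory neuron markers summed to 2357 to 2836 in high and 5990 to 25032 in low performers, the top value being low library 1, and 3 of 9 passed as lower. Cerebellar granule markers summed to 19108 to 34140 in high and 40697 to 47115 in low performers. Of the 5 listed, 4 were high enough to be tested, with 0 passing in limma and 1 at an unadjusted p under 0.05. Their defining marker Gabra6 was at 0 in all high libraries and above 0 in at least 1 low library, and the same held in PFC and in HPF. The sums of the MDTH high libraries thus came wholly from the other genes listed. Cortical excitatory markers summed to 24652 to 30895 in high and 11095 to 19351 in low performers, with 1 of 8 higher. Astrocyte markers summed to 205899 to 262780 in high and 226499 to 236099 in low performers, with overlap and 2 of 8 lower. Oligodendrocyte precursor markers summed to 6690 to 7468 in high and 7972 to 8755 in low performers, with 1 of 4 lower. The part of these markers in the subunit differences was not tested. Without low library 1, which held the most inhibitory marker counts, Grin2b differed by 1.43 and Grin2c by 1.37 on the log2 scale (limma, adjusted p = 0.00310 and 0.00416), and Grin2a by 0.93, which also passed. Without low library 3, which held the most habenular marker counts, Grin2b differed by 1.10 and Grin2a by 0.84 (limma, adjusted p = 0.0223 and 0.0261), and Grin2c by 0.98 without passing (adjusted p = 0.0864). In both omissions the remaining low libraries still held more habenular and more inhibitory marker counts than any high library. Neither fit can therefore show what part the markers had.

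**Figure D4:**
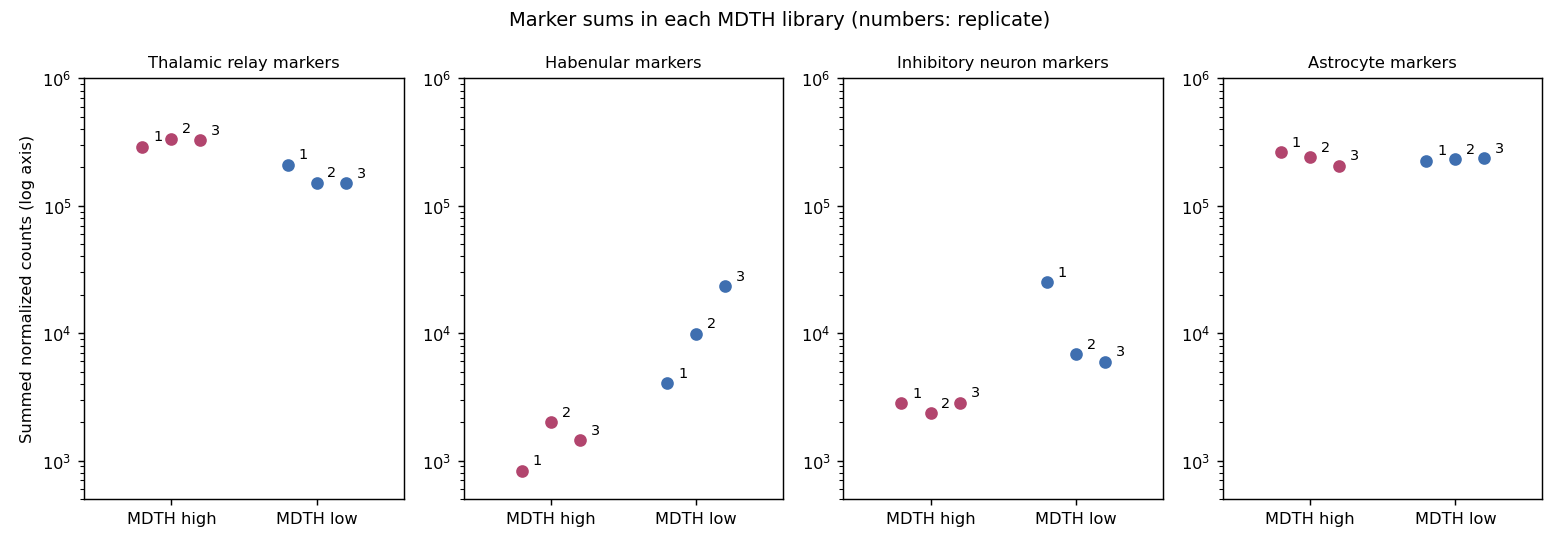
Summed normalized counts (vertical axis, logarithmic) of thalamic relay, habenular, inhibitory neuron and astrocyte markers in each MDTH library (points numbered by replicate; high performers red, low performers blue). Thalamic relay sums lie at 291696 to 335436 in high and 150592 to 210389 in low performers, habenular and inhibitory sums are higher in all low libraries, and astrocyte sums overlap.

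In PFC no member passed, where 5.85% of the 17991 genes tested did. In limma 2 members, Grin2a and Grin2b, had an unadjusted p under 0.05, as 24.1% of all genes did, and the same 2 had groups that did not overlap, against 30.9% of genes. Values for Grin2a were 13367, 14109 and 9602 normalized counts for the high libraries and 8639, 7176 and 7729 in the low ones. All high libraries lay above the low ones, the third by a small margin. The log2 difference was 0.64 with SE 0.16 and an interval of 0.27 to 1.01 (limma, adjusted p = 0.0597). With all 18 libraries sharing one estimate of the spread, the adjusted p was 0.00785. Grin2b stood at 21491, 16185 and 15552 in high and 13338, 13977 and 11638 in low performers, a log2 difference of 0.44 (limma, adjusted p = 0.113). Choroid plexus markers were high in 1 PFC high and 2 PFC low libraries. Microglia markers summed to 9786 to 11806 in high and 12235 to 15052 in low performers (2 of 6 lower), and hippocampal markers to 10395 to 12912 and 8515 to 9837 (1 of 9 higher). The part of these markers was not tested. Without any one PFC library the Grin2a difference stayed between 0.53 and 0.81 on the log2 scale. The other 4 members had PFC log2 differences of -0.35 for Grin2d, -0.15 for Grin1, -0.04 for Grin2c and 0.31 for Grin3a, and the sign for Grin2c turned without high library 1 (0.08), low library 1 (0.03) or low library 3 (0.02).

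In HPF no member passed either, where 0.0166% of the 18082 genes tested, 3 genes, did. In limma 1 member, Grin2a, had an unadjusted p under 0.05, as 13.3% of all genes did. The groups did not overlap for 2 members, Grin1 and Grin2a, against 20% of genes. Grin2a was at 16716, 20325 and 22728 normalized counts in the high libraries and 13735, 15020 and 13910 in the low ones, and its lowest high library exceeded its highest low one. The log2 difference was 0.48 with an interval of 0.19 to 0.76 (limma, adjusted p = 0.218). Grin2b was at 20540, 25422 and 19438 in high and 17440, 20031 and 21311 in low performers, with overlap and a log2 difference of 0.15, with an interval of -0.15 to 0.45 (limma, adjusted p = 0.651). Grin3a ranged widely among low performers, 2258, 1123 and 980 against 1888, 1909 and 2304 in high ones, a log2 difference of 0.58 (limma, adjusted p = 0.449). Grin1 differed by -0.13, Grin2c by 0.22 and Grin2d by 0.21. Marker sums also separated the HPF groups: hippocampal 58069 to 74999 in high and 42084 to 46443 in low performers, cortical excitatory 76152 to 89888 and 104623 to 122873, and striatal 4582 to 7524 and 2565 to 3757. None of the 9 hippocampal, 8 cortical and 6 striatal markers passed in limma, and 3, 6 and 2 of them had an unadjusted p under 0.05. HPF high library 2 also held 30369 summed thalamic relay counts, against 12228 to 20263 in the other HPF libraries. The part of these markers was not tested. The HPF high libraries came from sequencing lanes 3, 3 and 4 and the low ones from lanes 5, 5 and 4. In the only lane with both, 1 library a group, Grin2a was 1.63 times as high in the high performer, Grin3a 2.35 times, Grin2c 1.25 times, Grin2d 1.00 times, Grin1 0.957 times and Grin2b 0.912 times, with no replicate in that lane.

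Whether the difference between high and low performers itself differed between regions was tested with interaction terms over all 18 libraries. The Grin2b difference was larger in MDTH than in HPF, by a log2 value of 1.10 (SE 0.23, limma, adjusted p = 0.00405), and it was the 1 of 6 members to pass, where 19% of genes did. Against PFC the Grin2b excess in MDTH was 0.81 (limma, adjusted p = 0.0677, or 0.0414 with library-name number as a block). There 0 of 6 members passed in limma, where 3.41% of genes did, and 2 had an unadjusted p under 0.05, Grin2b and Grin2c. The Grin2c excess in MDTH was 0.85 against HPF (limma, adjusted p = 0.124, or 0.0413 with the block) and 1.10 against PFC (adjusted p = 0.128). Between HPF and PFC 0 of 6 members passed in limma, none had an unadjusted p under 0.05, and 9.14% of genes passed. The Grin2a difference was not shown to differ between regions: its excess in MDTH was 0.23 against PFC (interval -0.20 to 0.66) and 0.39 against HPF (interval -0.04 to 0.82).

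Between regions, with performance groups weighted equally, Grin2d and Grin3a were the members highest in MDTH. Grin2d ranged over 3002 to 5401 normalized counts in the MDTH libraries (median 3876), against 634 to 1160 in those of PFC (median 805) and 595 to 993 in those of HPF (median 628). No PFC or HPF library came near the MDTH range. Compared with PFC, the MDTH level of Grin2d was 4.56-fold higher (log2 2.19, SE 0.15, limma, adjusted p = 8.08e-09). Compared with HPF, whose libraries came from other sequencing lanes, it was 5.61-fold higher (log2 2.49, limma, adjusted p = 1.07e-09). Grin3a ranged over 6015 to 8139 in the MDTH libraries (median 6764), against 1981 to 3147 in those of PFC (median 2806) and 980 to 2304 in those of HPF (median 1899). The MDTH level was 2.62-fold that of PFC (limma, adjusted p = 7.33e-06) and 4.13-fold that of HPF (adjusted p = 5.93e-08). In HPF it was lower than in PFC by a log2 difference of -0.65 (adjusted p = 0.00553), while Grin2d did not pass there (-0.30, adjusted p = 0.113). Among low performers alone Grin3a did not pass (-0.79, adjusted p = 0.0642) and Grin2d did (-0.58, adjusted p = 0.0412). Of the 12 single-library omissions, 2 gave Grin2d a call: without HPF high library 2 (adjusted p = 0.0242) and without PFC low library 2 (0.0302).

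Grin2a had the opposite order, highest in HPF and lowest in MDTH. Its HPF libraries held 13735 to 22728 normalized counts (median 15868), its PFC libraries 7176 to 14109 (median 9121) and its MDTH libraries 4284 to 8926 (median 5983). MDTH and HPF did not overlap. Its log2 difference was -1.46 between MDTH and HPF (limma, adjusted p = 6.08e-09), -0.68 between MDTH and PFC (adjusted p = 4.75e-05) and 0.78 between HPF and PFC (adjusted p = 1.30e-05). Grin2b followed the same order more weakly, at -0.74 between MDTH and HPF (limma, adjusted p = 3.89e-05) and 0.45 between HPF and PFC (adjusted p = 0.00437). The MDTH range of Grin2b, 6577 to 20168, spanned both performance groups, and among high performers alone, in a fit with library-name number as a fixed block, its MDTH difference was 0.11 from PFC (adjusted p = 0.539) and -0.19 from HPF (adjusted p = 0.220). In the same fit the Grin2b difference between HPF and PFC was 0.30 (adjusted p = 0.0905). The MDTH level of Grin2c was 1.90-fold that of PFC (limma, adjusted p = 0.000709), and among low performers alone the log2 difference was 0.38 (adjusted p = 0.389). Against HPF its MDTH log2 difference was 0.41 (adjusted p = 0.0687, or 0.0232 with library-name number as a block). It was 0.83 among high performers alone with library-name number as a fixed block (adjusted p = 0.000783), and -0.02 among low performers alone in a fit without a block (adjusted p = 0.970).

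In these region comparisons 6 of 6 members passed between MDTH and PFC (3 higher, 3 lower), where 40.7% of the 18254 genes tested did, 20.3% as higher and 20.4% as lower. Between MDTH and HPF 4 of 6 passed (2 higher, 2 lower), where 58.1% of genes did, 29.1% as higher and 29% as lower. Between HPF and PFC 4 of 6 passed (3 higher, 1 lower), where 45.5% of genes did, 21.8% as higher and 23.7% as lower. The calls for Grin1 and Grin2b between MDTH and PFC were close to the threshold, at -0.22 (limma, adjusted p = 0.0489) and -0.29 (adjusted p = 0.0495). With no filter on low values they were at adjusted p = 0.0738 and 0.0725, and 8 and 9 of the 12 single-library omissions ended them. The Grin2c call between HPF and PFC (0.52, adjusted p = 0.0307) ended in 6 of the 12 omissions, with adjusted p up to 0.0807, and among low performers alone it was 0.39 (adjusted p = 0.309).

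**Figure D5:**
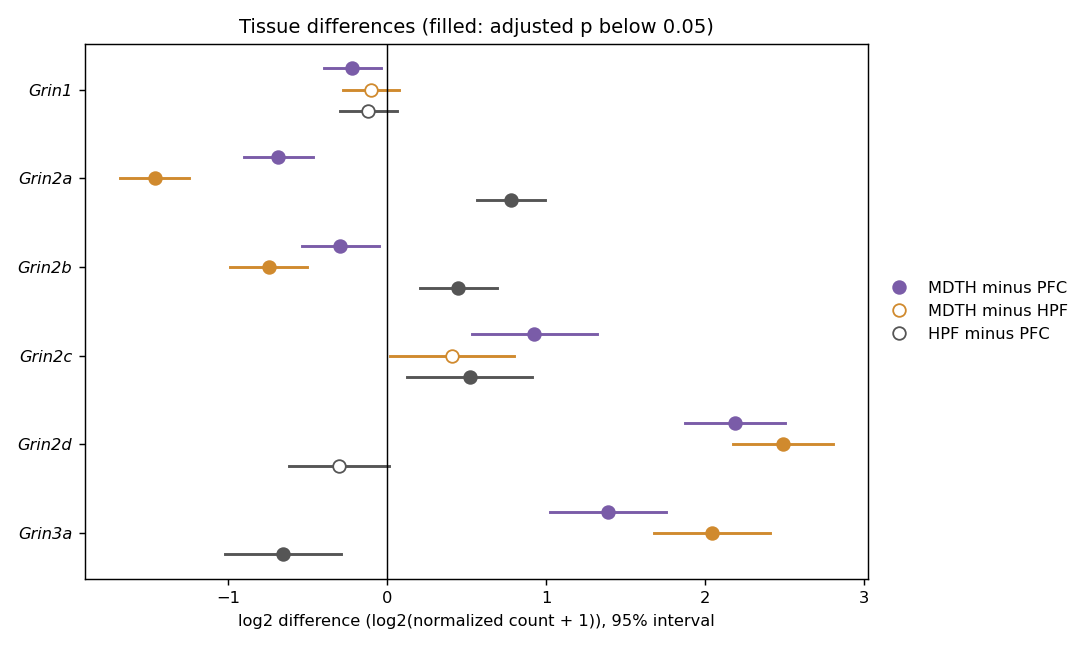
Differences between regions in log2(normalized count + 1) (horizontal axis; points, with 95% intervals) for each subunit gene over all 18 libraries, filled where the adjusted p is below 0.05. Grin2d at 2.19 and 2.49 and Grin3a at 1.39 and 2.04 are the MDTH differences farthest above 0, and Grin2a at -1.46 the one farthest below.

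The wider NMDA receptor machinery was described with 5 lists holding 90 genes. In MDTH high performers had 19 of the 89 tested genes higher and 17 lower, where 25% of all genes tested passed. In PFC 1 of 87 was higher and 3 were lower, a share no larger than the 5.85% over all genes, and in HPF none of 87 passed in limma. In the MDTH list of kinases, phosphatases and downstream proteins, 13 of 28 were higher and 2 lower, where 12.5% of all genes were higher and 25% passed in all, with a median log2 difference of 0.40 against -0.00 over all genes. Ptk2b, the kinase Pyk2 that leads to Src phosphorylation of the receptor, was at 4980 ± 1265 normalized counts in the low and 12837 ± 1489 in the high libraries (SD, n = 3; log2 difference 1.39, limma, adjusted p = 0.00437). Ppp3cb, a catalytic subunit of calcineurin, differed by 0.67 (adjusted p = 0.00580), and Rasgrf2, a calcium-regulated activator of Ras, was lower by a log2 difference of -1.51 (adjusted p = 0.00614).

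Among 17 scaffold and anchoring genes, 2 were higher and 6 lower in MDTH high performers, and this and the following list counts stand beside the same 25% of all genes. The lower ones included Dlg1, which encodes the scaffold SAP97 (log2 difference -0.78, limma, adjusted p = 0.00282), Neto1, an auxiliary protein of glutamate receptors (-1.16, adjusted p = 0.0152), and Akap5, an anchor of protein kinase A (-1.40, adjusted p = 0.0156). Surface partners had 1 higher and 6 lower of 14, with a median of -0.68. Reln, the secreted protein reelin, was at 106 ± 50.8 normalized counts in the MDTH high and 2007 ± 335 in the MDTH low libraries (SD, n = 3; log2 difference -4.35, limma, adjusted p = 0.00270). Ephb1, an ephrin receptor, and Nrg1, the growth factor neuregulin, were lower by -1.33 and -1.58 (adjusted p = 0.00366 and 0.00367). Of 13 trafficking genes 3 were higher and 2 lower: the scaffold genes Magi2 and Magi3 differed by -0.66 and -0.90 (adjusted p = 0.00531 and 0.00786), and Kif17, a motor that carries GluN2B, by 0.60 (adjusted p = 0.0199). Of 17 genes for co-agonist and antagonist handling, 1 passed, the serine transporter gene Slc1a4 at -0.53 (adjusted p = 0.0453). Shmt2 and Phgdh, of serine and glycine metabolism, were at -0.36 and -0.67 without passing. Reln is also made by inhibitory neurons, whose summed markers were higher in each MDTH low library, though 3 of 9 passed singly, and the part of those markers in these lists was not tested.

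In PFC the genes of these lists that passed included Prkcb, a protein kinase C (0.45, limma, adjusted p = 0.0313), Fyn, a kinase that phosphorylates GluN2B (-0.37, adjusted p = 0.0460), and Grina, a glutamate receptor-associated membrane protein (-0.36, adjusted p = 0.0270). In HPF the smallest adjusted p among them was 0.127, for Efnb2 at 0.78 and Ephb2 at -0.57, an ephrin and an ephrin receptor. At an unadjusted p under 0.05, which 13.3% of all genes tested in HPF had, the HPF lists held 3 of 17 scaffold genes, 4 of 13 trafficking genes, 2 of 28 kinases and downstream genes, 1 of 15 co-agonist genes and 5 of 14 surface partners.

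Between regions, 22 of the 89 tested genes of these lists were higher and 45 lower in MDTH than in PFC, where 40.7% of all genes passed. Dlgap2, a partner of PSD-95, was lower by a log2 difference of -4.47 (limma, adjusted p = 1.77e-11) and Akap5 by -3.45 (adjusted p = 9.20e-11). Of the co-agonist genes, Slc6a9, the glycine transporter GlyT1, was higher in MDTH than in PFC by 1.57 (adjusted p = 2.04e-06) and than in HPF by 2.48 (adjusted p = 6.92e-09). Gldc, of the glycine cleavage system, was lower in MDTH by -2.46 than in PFC and by -3.44 than in HPF (adjusted p = 1.88e-09 and 2.60e-11). Srr, which makes D-serine, was lower by -0.70 and -0.94 (adjusted p = 1.80e-05 and 4.48e-07). Between MDTH and HPF 23 were higher and 44 lower, where 58.1% of all genes passed, and between HPF and PFC 26 were higher and 30 lower, where 45.5% did.

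Promoter sequence from RefSeq (GRCm38.p6), 250 bases before the annotated start, was at hand for 3 members, Grin1, Grin2c and Grin2d. Grin2c and Grin2d are shown because their MDTH differences with performance had opposite signs. Capitals mark GGGCGG, the GC box, searched on both strands along with CACGTG, TGACGTCA and TATAAA.
Grin2c promoter: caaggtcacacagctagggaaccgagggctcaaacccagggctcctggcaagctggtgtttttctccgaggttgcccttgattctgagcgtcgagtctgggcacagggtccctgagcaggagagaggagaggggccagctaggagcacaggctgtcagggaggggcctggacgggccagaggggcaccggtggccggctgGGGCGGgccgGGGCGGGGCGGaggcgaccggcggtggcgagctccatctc
Grin2d promoter: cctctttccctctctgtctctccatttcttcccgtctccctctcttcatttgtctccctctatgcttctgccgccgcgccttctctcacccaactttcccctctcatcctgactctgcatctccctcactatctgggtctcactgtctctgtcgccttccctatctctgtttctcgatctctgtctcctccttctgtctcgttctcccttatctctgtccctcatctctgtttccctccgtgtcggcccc
The Grin2c stretch, chr11:115267244-115267493 on the minus strand, is 68.8% G and C and holds 3 GC boxes, of which the last pair overlap. The Grin2d stretch, chr7:45866682-45866931 on the minus strand, is 54.4% G and C and holds none of the 4 motifs, and its RefSeq start differs from the GENCODE start. The Grin1 stretch, chr2:25319188-25319437, is 58.8% G and C with 2 CACGTG motifs. Of 32544 promoters of the same length, 33.0% held GGGCGG, 6.03% CACGTG, 1.55% TGACGTCA and 12.3% TATAAA, with a median G and C content of 52.4%. A match describes letters only.

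The genes whose log2 levels were most like each member's over the 18 libraries were found among 12521 genes with a mean of at least 100, by Pearson's r, given as a description since the libraries share groups, scaling and, for some, name numbers. For Grin2d they were Unc119, Maged2 and Ptch1 (r = 0.983, 0.981 and 0.980). For Grin3a they were Cdh7, Btbd11 and Camk2d (0.963, 0.962 and 0.948), and for Grin2a Camkk1, Spink8 and Rpl22 (0.945, 0.943 and 0.941). On deviations from group means, r for these was 0.657, 0.580 and 0.547 with Grin2d, 0.692, 0.728 and 0.537 with Grin3a, and 0.621, 0.184 and 0.111 with Grin2a. Grin2b was most like Actr3b, Atp2b1 and Mars2 (0.931, 0.927 and 0.923), and Grin2c most like Slc9a3r1, Shank3 and Frmpd1 (0.930, 0.912 and 0.898), with 0.884 on deviations for Slc9a3r1. Grin1 had the lowest values, with Apba2, Jdp2 and Cacna1a (0.815, 0.802 and 0.799).

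Among the members, Grin2d and Grin3a ran together over the 18 libraries (r = 0.890) but not on deviations from group means (0.00). Grin1 and Grin2d showed the reverse, -0.28 over the libraries and 0.83 on deviations. Grin2a and Grin2b stood at 0.848 and 0.358. The ratio of Grin2a to Grin2b, on a log2 scale of normalized counts, averaged -1.20 ± 0.11 in MDTH high and -0.83 ± 0.25 in MDTH low performers, -0.53 ± 0.28 and -0.73 ± 0.20 in PFC, and -0.13 ± 0.31 and -0.46 ± 0.14 in HPF (SD, n = 3, high before low).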

How the data were processed

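Libraries were made from polyadenylated RNA with a strand-marking Illumina kit, per the labels' protocols. The submitters' processing notes name STAR, Salmon and DESeq2 without versions or roles. Not given in the sources used here are the genome build, the annotation and the strand setting of the counting. The deposited table holds normalized count values per gene (signal, not raw reads), scaled by the authors across the 18 libraries. From 20.2% to 66.5% of low values were whole reads within 0.02 after undoing the scaling, so no count test was run. Values became log2(value + 1), genes with a mean of at least 10 were tested with limma 3.58.1 in R 4.3.3 (intensity trend, two-sided, Benjamini-Hochberg over all genes tested, threshold 0.05). High and low performers were compared per region on 6 libraries; regions and interactions on all 18. Positions and lengths come from GENCODE M21, which held 48058 of the 48440 identifiers.

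Libraries that share a library-name number across regions deviated together from their group means (11 pairs, r = 0.400 to 0.703). Pairs across regions with different numbers were not set beside them. The main fits leave the number out, and the fit with it as a block is given where it changes a call. Members, lists and the rules for named genes were chosen with earlier results of these data known. Named genes are the members, Grin3b, the 3 smallest p-values of each receptor-related list in a comparison and 3 genes most like each member. A few marker genes and overlapping genes are named besides these. The scripts were tested on simulated data. Alternatives tried were a pseudocount of 5, no filter, quantile normalization, all 18 libraries in a fit, replicate blocks, sequencing lane, one performance group alone and leaving out each library. Some sequences and 1 gene of these lists are not reported here.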

Additional observations from a re-analysis of the deposited data

Results flagged for a closer look

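The Grin2b difference between high and low performers was larger in MDTH than in HPF, by 1.10 on the log2 scale with SE 0.23, by the interaction term over all 18 libraries (limma, adjusted p = 0.00405). In MDTH all 3 high libraries (17635, 20168 and 19025 normalized counts) exceeded all 3 low ones (10381, 7448 and 6577), and in HPF the groups overlapped (20540, 25422 and 19438 against 17440, 20031 and 21311). The adjusted p was 0.000700 to 0.0129 when each of the 12 libraries was left out in turn, and 0.0202 with quantile normalization, where the value was 0.81. Thalamic relay, habenular and inhibitory neuron marker sums also separated the MDTH groups, and their part in this difference was not tested. The HPF libraries came from other sequencing lanes than the MDTH libraries, and the part of lane was not tested either.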

How the results depend on the processing

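For the 18 member results that passed, 279 of the 316 values under alternatives kept direction and side of the threshold, 36 lost the call and 1 reversed. The reversal was Grin2b between MDTH and PFC, 0.11 among high performers with library-name number as a fixed block. Among member results that had not passed, 18 values gained a call. Those not given with the results or below were the interactions of MDTH with PFC for Grin2b without PFC high 1 or MDTH low 1 (adjusted p = 0.0371 and 0.00896) and for Grin2c without MDTH low 1 (0.0174). Those with HPF were Grin2c without MDTH low 1 (0.0202) and Grin3a without HPF low 1 (-1.12, 0.00736). Between MDTH and HPF they were Grin1 with quantile normalization (-0.24, 0.00637) and Grin2c without HPF high 3 or MDTH low 2 (0.0414 and 0.0223). Signs turned as follows. With quantile normalization Grin1 was -0.18 in MDTH, 0.0070 in HPF, 0.034 between HPF and PFC, and -0.0072 and -0.20 in the interactions of MDTH with PFC and HPF, and Grin3b was -0.043 in HPF. With lane as a term, HPF gave -0.13 for Grin2b and -0.42 for Grin3b. Low performers alone gave -0.016 for Grin2c between MDTH and HPF. Leaving out libraries gave Grin2c from -0.17 to 0.080 in PFC and -0.014 to 0.45 in HPF, Grin1 from -0.068 to 0.13 in MDTH and -0.083 to 0.13 in the interaction of HPF with PFC. It gave Grin2d from -0.015 to 0.35 in HPF and -0.22 to 0.13 in the interaction of MDTH with PFC, and Grin3b from -0.016 to 0.29 in HPF. The causes were not tested.

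With library-name number as a replicate block, the interaction of MDTH with PFC called 1034 genes against 623, Grin1 in the interaction of HPF with PFC was -0.0046, and 4 values gained a call: Grin2b in the interaction of MDTH with PFC, Grin2c between MDTH and HPF and in their interaction, and Grin3b in the interaction of MDTH with HPF (adjusted p = 0.0343). Title numbers within a region did not pair libraries (9 pairs, r = -0.157 to 0.129). With them as a replicate block, calls of high against low were 0 in PFC against 1053, 2425 in MDTH against 4470 and 0 in HPF against 3, and Grin2d in MDTH reached adjusted p = 0.0408.

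Counts of genes passed also moved. PFC gave 2529 with all 18 libraries, and 7 to 1306 when libraries were left out (205, 17 and 7 without high 1, 2 and 3, and 278 and 9 without low 1 and 3). HPF gave 11 with no filter, 7 with quantile normalization, 265 with all 18 libraries and 6 with lane, and 0 to 15 leaving out libraries (0 without high 1, 6 without high 3, 7 without low 1, 15 without low 2). MDTH gave 1839 to 4223 (2469 and 2800 without high 2 and 3, 2377 and 1839 without low 2 and 3). MDTH against PFC gave 4411 with low performers only, against 7428. The interaction of MDTH with PFC ran from 278 to 1004 (408 without PFC high 2; 964, 402 and 403 without MDTH high 1, 2 and 3; 1004, 278 and 344 without MDTH low 1, 2 and 3). That of HPF with PFC, 1669, ran from 896 to 1818 (949 without PFC high 2, 1047 without PFC low 3, 909 without HPF low 1, 896 without HPF high 3). With 3 libraries a group, a p above the threshold does not show that a member did not differ.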
